A study of Rattus norvegicus with 82 samples.

Results

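The SLC25 mitochondrial carriers were examined in cardiomyocyte transcriptomes of rats with right or left ventricular pressure overload. Members were taken by name, as every gene whose symbol began with Slc25a and whose raw read count averaged at least 10 over all 82 libraries. Of 17337 genes in the table, 40 had such a symbol, 35 passed the minimum, and all 35 were among the 11954 genes tested. The 5 symbols below the minimum were *Slc25a22* (mean count 4.56), *Slc25a47* (3.15), *Slc25a41* (0.732), *Slc25a53* (0.146) and *Slc25a54* (0), and they were not carried further. Some symbols of the family had no entry in the table, among them *Slc25a12* and *Slc25a13* of the malate-aspartate shuttle. Those genes could not be examined, and nothing is said here of their levels.

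The animals were 41 rats, the F1 offspring of female Wistar Kyoto and male Lewis parents, and each gave 1 library from the right ventricle (RV) and 1 from the left (LV). They had received pulmonary artery banding (PAB), aortic banding (AOB) or a sham operation, and were killed at the stage of compensated hypertrophy (H) or of heart failure (F). By the labels, stage H animals were 11 weeks old, 7 weeks after surgery, and comprised 7 Sham-H, 6 PAB-H and 6 AOB-H rats. Stage F comprised 9 Sham-F and 7 AOB-F rats aged 31 weeks, 26 weeks after surgery, and 6 PAB-F rats aged 28 weeks, 22 weeks after surgery, so that PAB-F and its sham group also differed in age. The text of the study gives other, later ages for every stage, so the ages and times printed here are those of the labels alone. Males numbered 3 of 7 in Sham-H, 4 of 6 in PAB-H, 2 of 6 in AOB-H, 4 of 9 in Sham-F, 4 of 6 in PAB-F and 4 of 7 in AOB-F. The clips did not narrow the vessel when placed and became tight as the animal grew, and cardiomyocytes were released with collagenase and enriched by filtration and centrifugation rather than by sorting.

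SLC25 proteins form the main family of transporters of the inner mitochondrial membrane, which is otherwise closed to charged metabolites. They exchange ADP for ATP, bring in phosphate, and pass carboxylates, acylcarnitines, amino acids, nucleotides and cofactors between cytosol and matrix. They are encoded in the nucleus, and most are inserted through the TOM and TIM22 import machinery. In the heart, whose contraction depends on mitochondrial ATP, ADP/ATP exchange and phosphate entry are among the busiest transport steps.

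Assigned counts ranged from 6675287 to 19665439 per library, with a median of 13074485.5. The 10 ventricular cardiomyocyte markers were detected in every library and summed to between 29077 and 75250 FPKM (fragments per kilobase of transcript, scaled for sequencing depth). The 7 endothelial markers summed to 169 to 1121 FPKM and the fibroblast markers to 50.5 to 707 FPKM. In 13 libraries the endothelial or fibroblast sum was more than 1.5 times the median of its group. These were LV Sham-H replicate 4, LV PAB-H 2, LV AOB-H 6, LV Sham-F 3 and 4, LV PAB-F 4, RV PAB-H 1 and 2, RV AOB-H 6, RV Sham-F 1 and 3, and RV PAB-F 1 and 3. In 5 libraries the cardiomyocyte sum was under 0.75 times the median of its group, namely LV AOB-H 6 (29077 FPKM), LV AOB-F 6 and 7 (31572 and 31035), RV PAB-H 2 (34595) and RV PAB-F 1 (35478). Results that changed without these marker-rich or low-cardiomyocyte libraries are given both ways below. In such bulk samples, fewer cells of a type and less RNA per cell cannot be told apart.

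The family took 0.993% of all counts on average (0.626% to 1.19% over libraries), and *Slc25a3* and *Slc25a4* together held 77.5% of that (72.1% to 81.1%). Levels are given here in FPKM, which is per length and lets genes be compared, as the mean over all 82 libraries. Among carriers of adenine nucleotides and phosphate, the ADP/ATP exchanger *Slc25a4* (NCBI gene 85333) stood at 3402 FPKM (SD 502, range 1638 to 5006), the 12th highest mean of all genes, and the phosphate carrier *Slc25a3* at 2174 (SD 285), the 18th highest. The second ADP/ATP exchanger of the heart, *Slc25a5*, was far lower at 157 FPKM. The calcium-regulated ATP-Mg/phosphate carriers, which adjust the adenine nucleotide content of the matrix, differed among themselves, with *Slc25a23* at 65.3, *Slc25a25* at 15.7 and *Slc25a24* (NCBI gene 310791) at 2.04 FPKM (range 0.765 to 7.10). The plot of mean levels by role shows the spread from *Slc25a4* down to *Slc25a27*.

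**Figure D1:**
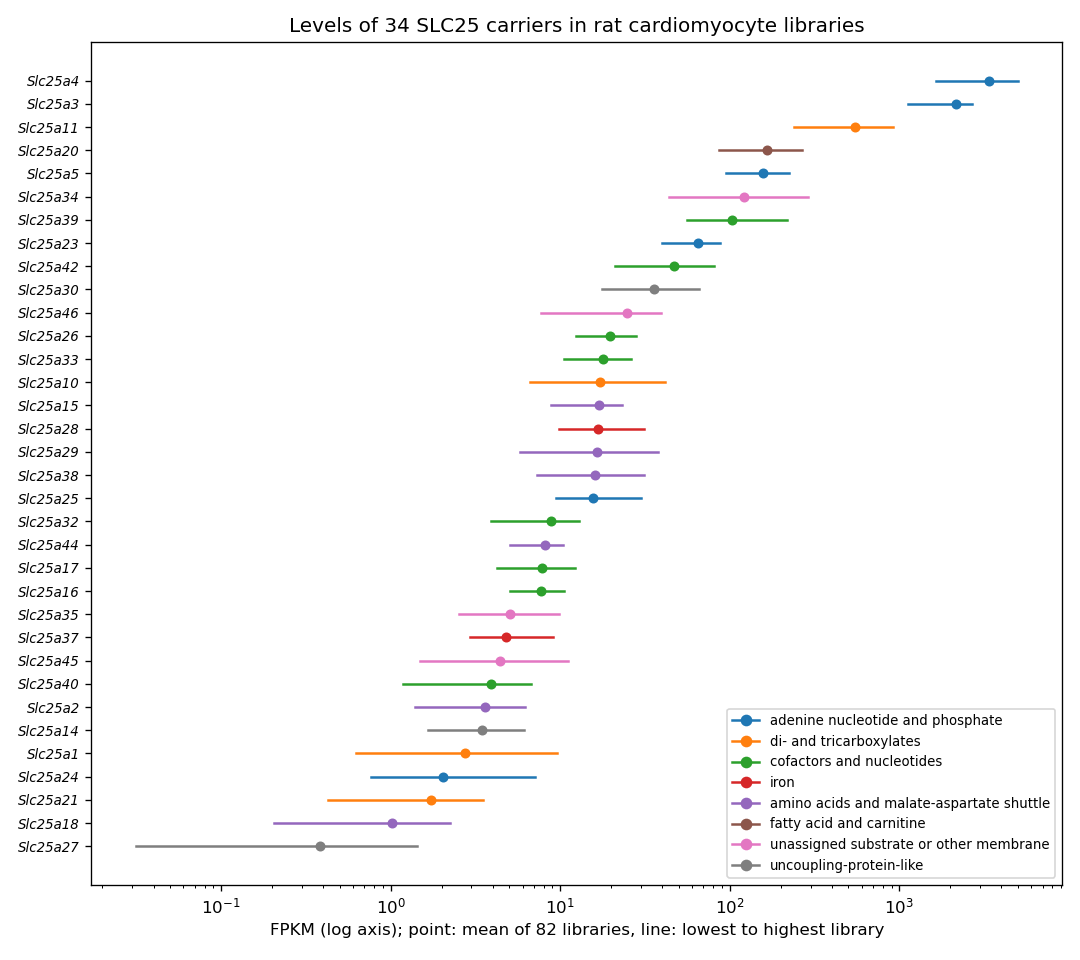
Mean level of 34 SLC25 carriers in FPKM on a logarithmic axis, coloured by role. Points are means of 82 libraries and lines run from the lowest to the highest library, and *Slc25a4* (3402) and *Slc25a3* (2174) lie above *Slc25a11* (545) and all other members.

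Carriers of di- and tricarboxylates spanned a wide range. The 2-oxoglutarate carrier *Slc25a11*, an arm of the malate-aspartate shuttle, reached 545 FPKM (SD 104), whereas the dicarboxylate carrier *Slc25a10* stood at 17.3, the citrate carrier *Slc25a1* (NCBI gene 29743), which exports citrate for lipid synthesis, at 2.74 (range 0.622 to 9.61) and the oxodicarboxylate carrier *Slc25a21* at 1.73. The carnitine/acylcarnitine carrier *Slc25a20*, needed for fatty acid oxidation, stood at 165 FPKM, below the carnitine palmitoyltransferase gene *Cpt1b* (373) and near *Cpt2* (138). Of the amino acid carriers, the mean was 17 for the ornithine carrier *Slc25a15*, 16.4 for the basic amino acid carrier *Slc25a29*, 16.1 for the glycine carrier *Slc25a38*, 8.19 for the branched-chain amino acid carrier *Slc25a44*, 3.62 for the ornithine carrier *Slc25a2* and 1.02 for the glutamate carrier *Slc25a18*.

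Cofactor and nucleotide carriers were led by *Slc25a39* (NCBI gene 360636), which brings glutathione into the matrix, at 103 FPKM, while its paralogue *Slc25a40* (296813) stood at 3.90. The coenzyme A carrier *Slc25a42* stood at 46.9, the S-adenosylmethionine carrier *Slc25a26* at 19.7, the pyrimidine nucleotide carrier *Slc25a33* at 17.9 and the folate or flavin carrier *Slc25a32* at 8.78. The peroxisomal *Slc25a17* and the coenzyme A-linked *Slc25a16* were at 7.87 and 7.74. The iron importers mitoferrin 2 (*Slc25a28*) and mitoferrin 1 (*Slc25a37*) were at 16.7 and 4.81. Among uncoupling-protein-like members, *Slc25a30* was at 35.7, *Slc25a14* at 3.45 and *Slc25a27* at 0.382 FPKM, the lowest of the 35. The remaining members were *Slc25a34* (122, range 43.8 to 289) and *Slc25a35* (5.04), whose substrates are not settled, *Slc25a45* (4.42), and *Slc25a46* (NCBI gene 291709, mean 24.8), which sits in the outer membrane and acts in mitochondrial dynamics.

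Within groups, the coefficient of variation (CV) had a median over the 12 groups of 10.1% for *Slc25a23*, 10.7% for *Slc25a4* and 10.9% for *Slc25a3*. It was largest for 3 low members, *Slc25a27* (39.8%), *Slc25a18* (35.3%) and *Slc25a24* (31.2%). Relatives of the same protein fold but with other symbols were *Ucp2* at 203, *Mtch1* at 136, *Mtch2* at 96.6, *Ucp3* at 11.1 and *Ucp1* at 0.114 FPKM, and the pyruvate carrier subunits, which have another fold, were at 684 (*Mpc2*) and 387 (*Mpc1*).

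Pulmonary artery banding loads the RV, and the question was which carriers differed from sham in that ventricle at each stage. In RV PAB-H, 1 of 35 carriers passed the test, *Slc25a24*, which was higher, and 0 were lower, beside 4.50% of all genes tested. Passing the test means here an adjusted p under 0.05 in edgeR's quasi-likelihood test, with the Benjamini-Hochberg adjustment over all 11954 genes. The members' median log2 fold change was -0.07, beside 0.00 over all genes. In RV Sham-H, *Slc25a24* ran from 0.765 to 1.79 FPKM with a median of 1.29, and in RV PAB-H from 1.10 to 4.51 with a median of 2.40. The groups overlapped, 4 of the 6 banded RVs lying above every sham RV. The log2 fold change was 1.08 (SE 0.28, adjusted p = 0.020).

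The level of *Slc25a24* was highest in RV PAB-H replicate 2 (4.51 FPKM), the library with the highest fibroblast sum of the series (707 FPKM), and all 7 fibroblast markers tested were higher in RV PAB-H, with a median log2 fold change of 1.37. Without the 13 marker-rich libraries the log2 fold change was 0.70 with an adjusted p of 0.23 in edgeR's test, so the call was lost. It was also lost without RV PAB-H replicate 2 alone (0.82, adjusted p = 0.29), whose cardiomyocyte sum was 34595 FPKM against 56722 to 62190 in RV Sham-H, and without the 5 low-cardiomyocyte libraries (0.82, adjusted p = 0.098).

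In RV PAB-H, *Slc25a4* and *Slc25a42* fell short of the threshold although their libraries did not overlap those of RV Sham-H. *Slc25a4* ran from 3412 to 3895 FPKM in RV Sham-H (median 3797) and from 2094 to 3384 in RV PAB-H (median 3197). Every banded RV lay below every sham RV, but the log2 fold change of -0.28 (SE 0.11) had an adjusted p of 0.11. The same held for *Slc25a42*, at 42.7 to 49.2 FPKM in sham and 32.4 to 42.3 in banded RVs (log2 fold change -0.30, SE 0.12, adjusted p = 0.13). Libraries without overlap occurred for these 2 of 35 members and for 3.29% of all genes tested.

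In RV PAB-F, 4 of 35 carriers passed the test, 2 higher and 2 lower, beside 11.1% of all genes, and the members' median log2 fold change was -0.08 beside 0.02. *Slc25a24* ran from 0.875 to 1.84 FPKM in RV Sham-F (median 1.10) and from 1.38 to 4.57 in RV PAB-F (median 2.35), and 4 of 6 banded RVs exceeded all shams. Its log2 fold change was 0.96 (SE 0.27, adjusted p = 0.012). The S-adenosylmethionine carrier *Slc25a26*, which supplies the methyl donor of the matrix, was at 17.8 to 21.7 FPKM in sham (median 19.5) and 20.9 to 28.2 in PAB-F (median 24.9). These ranges touched at their ends, and the log2 fold change was 0.34 (SE 0.10, adjusted p = 0.017).

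*Slc25a4* was lower in the failing RV, at 3330 to 4076 FPKM in RV Sham-F (median 3913) and 1867 to 3614 in RV PAB-F (median 3102). The log2 fold change was -0.36 (SE 0.10, adjusted p = 0.017). The coenzyme A carrier *Slc25a42* fell likewise, from 40.2 to 56.2 FPKM (median 46.1) to 26.3 to 43 (median 35.5), with a log2 fold change of -0.38 (SE 0.12, adjusted p = 0.024). For both genes the ranges overlapped. Of 76 genes of the oxidative phosphorylation complexes tested, 0 were higher and 4 lower by the same test, beside 11.1% of all genes. Their median log2 fold change was -0.26.

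Further members of RV PAB-F had an unadjusted p under 0.05 but did not pass after adjustment. They were *Slc25a10* (log2 fold change 0.43, adjusted p = 0.082), *Slc25a15* (-0.33, 0.079), *Slc25a3* (-0.23, 0.12), *Slc25a27* (0.80, 0.15), *Slc25a1* (0.51, 0.16) and *Slc25a46* (-0.39, 0.18). The phosphate carrier *Slc25a3*, at 2349 to 2647 FPKM in RV Sham-F (median 2445), ran from 1440 to 2399 in RV PAB-F (median 2171). The share of all counts that the whole family took was 1.05% ± 0.0394 (SD, n = 9) in RV Sham-F and 0.924% ± 0.126 (SD, n = 6) in RV PAB-F, given as a description without a test.

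These calls in part rested on few libraries. Fibroblast markers were higher in RV PAB-F for 4 of 7 tested, with a median of 1.33, and the highest *Slc25a24* (4.57) and lowest *Slc25a4* (1867) came from replicate 1, whose fibroblast sum was 489 FPKM. Without the 13 marker-rich libraries, *Slc25a26*, *Slc25a42* and *Slc25a4* kept their calls, whereas *Slc25a24* had a log2 fold change of 0.73 and an adjusted p of 0.072. *Slc25a26* lost its call with no count filter (adjusted p = 0.10), with a gene length correction (adjusted p = 0.11) and without replicate 2 of RV PAB-F, and *Slc25a24* lost its call without replicate 1 (0.70, adjusted p = 0.16). *Slc25a4* and *Slc25a42* lost theirs without replicate 1 or without replicate 2 of RV PAB-F. Cardiomyocyte sums in these replicates were 35478 and 43695 FPKM, against 51242 to 63604 in RV Sham-F. Without the low-cardiomyocyte libraries 2 members passed, beside 5.11% of all genes, *Slc25a26* (0.36, adjusted p = 0.016) and *Slc25a4* (-0.26, adjusted p = 0.043), while *Slc25a24* (0.70, adjusted p = 0.059) and *Slc25a42* (-0.31, adjusted p = 0.070) did not.

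The LV of the same banded animals, which does not carry the pulmonary load, gave 0 of 35 calls at either stage by edgeR and by DESeq2. In LV PAB-H, 2 members had an unadjusted p under 0.05 and the background was 0% of all genes. In LV PAB-F, 1 member did so, *Slc25a42* with a log2 fold change of -0.29, and the background was again 0%. The difference between the ventricles in their PAB-F response was itself tested, and 0 of 35 members passed, with 4 at an unadjusted p under 0.05, 0 by DESeq2 and 0.351% of all genes. For *Slc25a24* the RV response exceeded the LV response by 0.85 on the log2 scale (SE 0.38, adjusted p = 0.34), so a response particular to the RV was not shown.

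**Figure D2:**
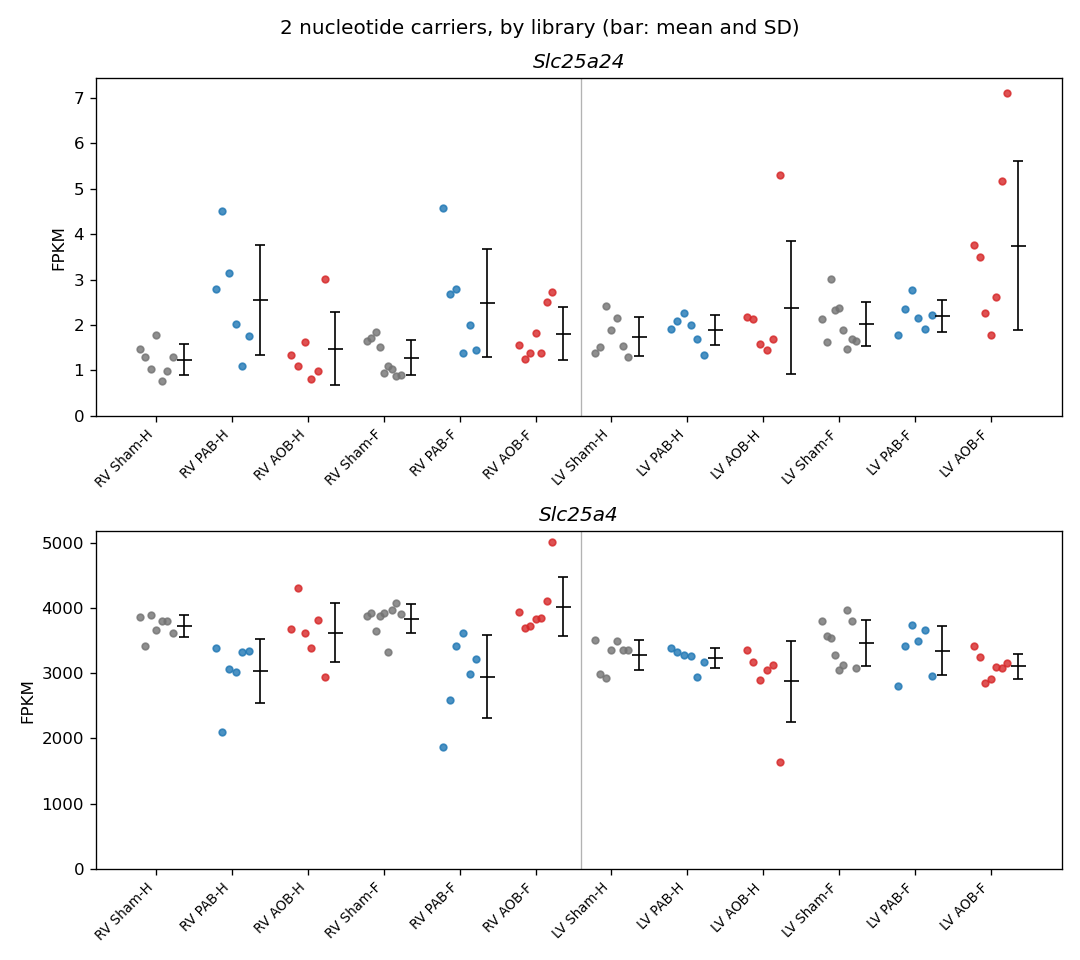
Level of *Slc25a24* and *Slc25a4* in FPKM in each library, by group, with sham in grey, PAB in blue and AOB in red, and bars for the mean and SD. The maximum of *Slc25a24* is 7.10 in LV AOB-F, 4.57 in RV PAB-F and 4.51 in RV PAB-H. LV AOB-H, where it did not pass the test, also holds a value above 4.57. *Slc25a4* is lowest in LV AOB-H (1638) and RV PAB-F (1867).

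Aortic banding loads the LV. At the compensated stage 0 of 35 carriers passed edgeR's test in LV AOB-H, where 7 had an unadjusted p under 0.05, DESeq2 called 0, and 0.0167% of all genes passed. In RV AOB-H the test called 0 members, 0 had an unadjusted p under 0.05, DESeq2 called 0, and the background was 0%. The 7 in LV AOB-H were *Slc25a5* (log2 fold change -0.31), *Slc25a25* (-0.39), *Slc25a39* (-0.32), *Slc25a11* (-0.28), *Slc25a3* (-0.23), *Slc25a23* (-0.21) and *Slc25a27* (0.97), with adjusted p of 0.16 to 0.23. *Slc25a24* was at 1.44 to 5.29 FPKM in LV AOB-H (median 1.90) and 1.30 to 2.43 in LV Sham-H (median 1.55). AOB-H animal 6 stood apart in both ventricles, with the lowest *Slc25a4* of the series in its LV (1638 FPKM, against 2927 to 3515 in LV Sham-H) and *Slc25a3* at 1126 in the LV and 1653 in the RV.

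At the failure stage, 3 of 35 carriers passed the test in LV AOB-F, 1 higher and 2 lower, beside 12.9% of all genes, and the median was -0.07 beside 0.04 over all genes. *Slc25a24* ran from 1.48 to 3.0 FPKM in LV Sham-F (median 1.90) and from 1.78 to 7.10 in LV AOB-F (median 3.50). The groups overlapped, with 4 of 7 banded LVs above all shams and replicates 6 and 7 highest at 5.16 and 7.10. The log2 fold change was 0.88 (SE 0.25, adjusted p = 0.013), and 0.66 (adjusted p = 0.095) without LV AOB-F replicate 7. Replicates 6 and 7 also had cardiomyocyte sums of 31572 and 31035 FPKM, against 51643 to 65964 in the other LV AOB-F libraries, and without the low-cardiomyocyte libraries the log2 fold change was 0.47 (adjusted p = 0.20).

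The pyrimidine nucleotide carrier *Slc25a33*, which serves mitochondrial DNA and RNA synthesis, was at 16.9 to 26.3 FPKM in LV Sham-F (median 19.5) and 12.8 to 17.8 in LV AOB-F (median 13.9). Its log2 fold change was -0.51 (SE 0.12, adjusted p = 0.0031), the smallest adjusted p among members in any banding comparison. The ATP-Mg/phosphate carrier *Slc25a23*, a paralogue of *Slc25a24*, was at 63.6 to 87.1 FPKM in sham (median 74.9) and 54.5 to 70.6 in banded LVs (median 59), a log2 fold change of -0.32 (SE 0.087, adjusted p = 0.0096). In the RV of the same animals *Slc25a24* ran from 0.875 to 1.84 FPKM in RV Sham-F and 1.25 to 2.72 in RV AOB-F. For *Slc25a33* and *Slc25a23* the LV ranges overlapped, and each call was kept under every alternative that used the adjusted p. *Slc25a33* (-0.45, adjusted p = 0.020) and *Slc25a23* (-0.28, adjusted p = 0.033) also passed without the low-cardiomyocyte libraries, beside 5.51% of all genes. The glutamate carrier *Slc25a18* passed there too (-1.36, adjusted p = 0.021). Replicates 6 and 7 of LV AOB-F, left out here, were both from females. *Slc25a18* was lower in males in LV AOB-F (log2 fold change -2.0) and in LV Sham-F (-1.26). The part of sex in this call was not tested.

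Without the marker-rich libraries, 8 carriers passed in LV AOB-F, 1 higher and 7 lower, beside 32.3% of all genes, and *Slc25a24* had a log2 fold change of 1.01 (adjusted p = 0.00027). None of the libraries left out was of LV AOB-F. Those of LV Sham-F were replicates 3 and 4, both from males, so the groups compared then differed more in sex. The part of sex in these calls was not tested. Macrophage markers were higher in LV AOB-F for 3 of 7 tested (sum 72.6 FPKM at the median, against 34.8 in LV Sham-F), and their part in the result was not tested. With all libraries, 0 of 76 oxidative phosphorylation genes were higher and 13 lower, beside 12.9% of all genes. Their median log2 fold change was -0.27.

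In the RV of AOB-F animals 0 of 35 carriers passed edgeR's test, 1 had an unadjusted p under 0.05 (*Slc25a21*, log2 fold change -0.54), DESeq2 called 0, and 0.0669% of all genes passed. The test of the difference between the LV and the RV in their AOB-F response called 0 of 35 by edgeR and by DESeq2, 3 at an unadjusted p under 0.05, beside 0% of all genes. The LV response lay below that of the RV by 0.35 for *Slc25a23* and 0.40 for *Slc25a33* on the log2 scale, with adjusted p of 0.46 to 0.47. Without the marker-rich libraries this test called 3 members, all more negative in the LV (*Slc25a23*, *Slc25a25* and *Slc25a33*), beside 6.35% of all genes. Of the groups in this test, only Sham-F lost libraries, all from males.

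RV and LV groups were compared to ask which carriers marked a ventricle. The main test used group means and did not pair the ventricles of an animal. With the animal as a block, 5 members passed in Sham-H (background 32.5%), 27 in Sham-F (77.2%), 25 in PAB-F (66.3%) and 26 in AOB-F (70.6%). By the main test, the ventricles of young sham rats differed for 4 of 35 members, 1 higher and 3 lower in the RV, beside 21% of all genes. *Slc25a46* was at 29.3 to 35.6 FPKM in RV Sham-H (median 33) and 7.73 to 30.6 in LV Sham-H (median 22.9), and was higher in the RV of 7 of 7 animals (log2 fold change 0.67, SE 0.20, adjusted p = 0.013). *Slc25a45* was at 2.18 to 3.05 in the RV and 2.75 to 7.36 in the LV (log2 fold change -0.72, SE 0.21, adjusted p = 0.012). *Slc25a39* (-0.40) and *Slc25a28* (-0.32) were also lower in the RV, each in 6 of 7 animals.

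The young sham LVs were not uniform. Replicates 4, 5 and 6 had *Slc25a46* at 7.73, 9.86 and 16.9 FPKM. It was also low in LV PAB-H replicate 2 (8.08) and LV AOB-H replicate 6 (13.5), whereas the other young LVs ran from 19.6 to 32.4. These sham replicates were all from females, but another female sham LV lay among the others. Within LV Sham-H, *Slc25a46* had a log2 fold change of 0.73 in males over females (adjusted p = 0.083 in edgeR's test). There 0 members passed for sex, beside 4.83% of all genes. Whether the ventricle difference changed with sex was not tested. Without LV Sham-H replicate 4, a marker-rich library, 0 members passed edgeR's test in the sham comparison, and without all marker-rich libraries only *Slc25a46* of the 35 passed (adjusted p = 0.010, background 14%).

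In PAB-H animals 0 members differed between ventricles by edgeR, with 6 at an unadjusted p under 0.05, 0 by DESeq2 and 0.125% of all genes. In AOB-H animals 1 member passed, *Slc25a4*, higher in the RV of 6 of 6 animals (log2 fold change 0.34, SE 0.11, adjusted p = 0.047, background 7.98%). With the animal as a block 3 passed, beside 13.7% of all genes, *Slc25a4* (0.36, adjusted p = 0.0053) and *Slc25a42* (0.31, adjusted p = 0.034) higher and *Slc25a24* (-0.66, adjusted p = 0.036) lower. RV AOB-H ran from 2935 to 4314 FPKM and LV AOB-H from 1638 to 3350, and without the marker-rich libraries, replicate 6 of either ventricle among them, the log2 fold change was 0.26 (adjusted p = 0.068). Without the low-cardiomyocyte libraries it was 0.21 (adjusted p = 0.20).

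In the older sham rats of stage F the ventricles differed for most of the family. By edgeR's test, 27 of 35 carriers passed, 13 higher and 14 lower in the RV, beside 74.3% of all genes, so the share was near that of the background. The members' median log2 fold change was -0.05, beside -0.07 over all genes. No overlap of RV and LV libraries was seen for 13 members, beside 41.8% of all genes. The largest difference was that of the citrate carrier *Slc25a1*, at 0.622 to 2.07 FPKM in RV Sham-F (median 1.33) and 2.42 to 7.25 in LV Sham-F (median 5.19). It was lower in the RV of 9 of 9 animals, and every RV lay below every LV (log2 fold change -1.97, SE 0.22, adjusted p = 1.53e-12).

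*Slc25a46*, which acts in mitochondrial fusion and fission at the outer membrane, had the opposite pattern, at 27.5 to 39.3 FPKM in the RV (median 34) and 8.83 to 19 in the LV (median 11.3). Its log2 fold change was 1.44 (SE 0.18, adjusted p = 4.50e-11), without overlap. The glutathione carriers, which are paralogues, moved in opposite directions. *Slc25a39* was at 67.2 to 83.7 in the RV and 128 to 211 in the LV (log2 fold change -1.05, adjusted p = 2.33e-12), whereas *Slc25a40* was at 3.49 to 6.64 in the RV and 1.30 to 3.62 in the LV (1.10, adjusted p = 2.91e-07). Ranges were apart for *Slc25a39* and met at their ends for *Slc25a40*.

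By role, the di- and tricarboxylate carriers had 1 of 4 higher and 3 of 4 lower in RV Sham-F, with *Slc25a1*, *Slc25a10* (-0.95) and *Slc25a11* (-0.31) lower and *Slc25a21* higher (1.24, adjusted p = 5.22e-07). Of 6 adenine nucleotide and phosphate carriers, *Slc25a5* (0.33) and *Slc25a3* (0.23) were higher and *Slc25a24* (-0.64), *Slc25a25* (-0.55) and *Slc25a23* (-0.22) lower, so that all 3 ATP-Mg/phosphate carriers were lower in the RV. The carnitine carrier *Slc25a20* was higher (0.47). Of 3 uncoupling-protein-like members, *Slc25a14* and *Slc25a30* were higher (0.76 each).

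Amino acid carriers were split, with *Slc25a2* (0.73) and *Slc25a15* (0.47) higher in RV Sham-F and *Slc25a29* (-0.67) and *Slc25a38* (-0.66) lower. Among the 9 cofactor and nucleotide carriers, *Slc25a32* (0.78), *Slc25a16* (0.32) and *Slc25a17* (0.27) joined *Slc25a40* as higher, and *Slc25a42* (-0.39) joined *Slc25a39* as lower. Mitoferrin 2, *Slc25a28*, was lower (-0.73). Of the 4 members of unsettled substrate or other membrane, *Slc25a34* (-0.74), *Slc25a35* (-0.69) and *Slc25a45* (-1.50, adjusted p = 7.82e-11) were lower beside the higher *Slc25a46*. The 2 most abundant members thus differed little between ventricles beside the low members *Slc25a1*, *Slc25a45* and *Slc25a21*.

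**Figure D3:**
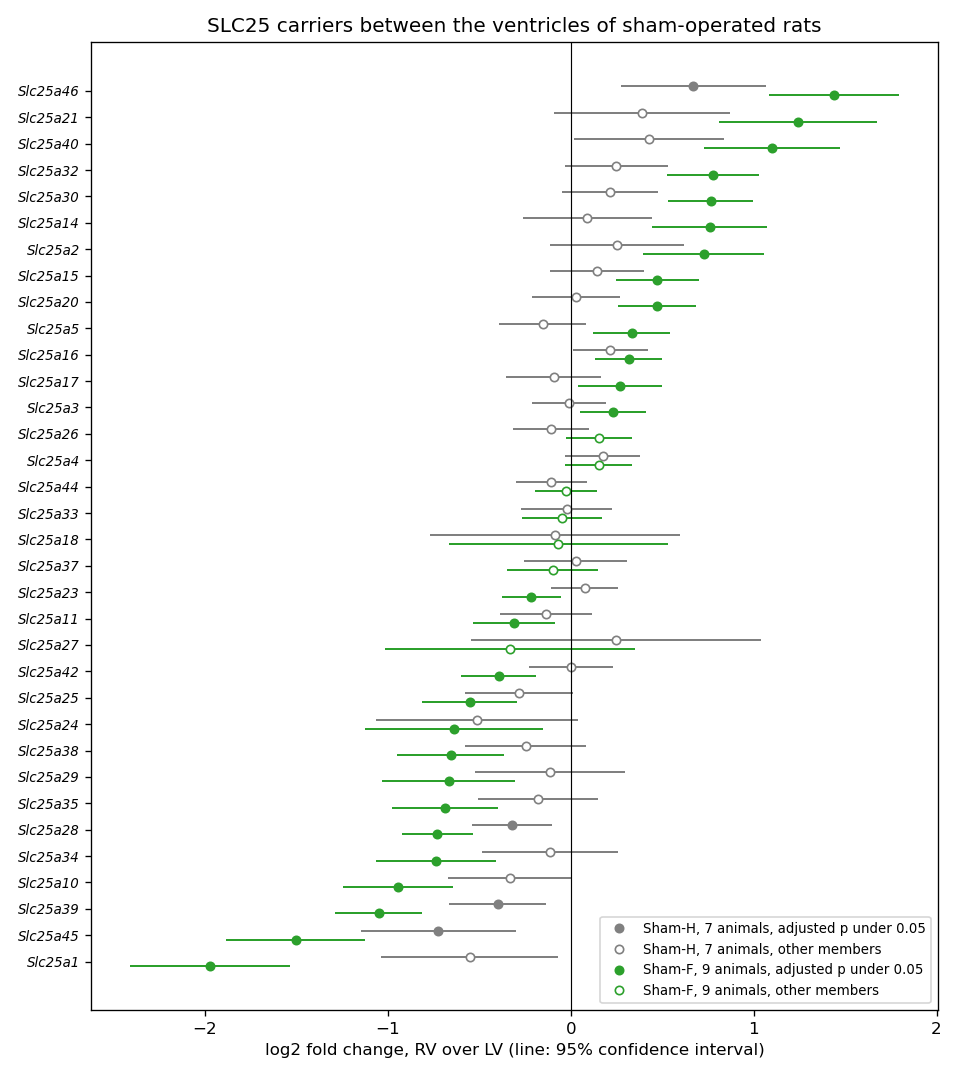
Log2 fold change of RV over LV for 34 carriers in Sham-H (grey) and Sham-F (green), with 95% confidence intervals and filled points for an adjusted p under 0.05. Filled points number 4 in Sham-H and 27 in Sham-F, from -1.97 for *Slc25a1* to 1.44 for *Slc25a46*.

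Because these genes separated the ventricles, the 250 bases before their RefSeq start sites are shown for 2 members lower in the RV, *Slc25a1* and *Slc25a39*, and 2 that were higher, *Slc25a40* and *Slc25a21*. Those of *Slc25a24*, called in 3 banding comparisons, and of *Slc25a4*, the most abundant carrier, follow. The sequences and coordinates are of the RefSeq build GRCr8, a later build than the Rnor6.0 of the counts, and are printed 5′ to 3′ on the gene's strand. Capitals mark the GC box (GGGCGG, bound by SP and KLF factors), the CCAAT box (CCAAT, bound by NF-Y) and the ETS motif (CCGGAAG, bound by GABP), read on either strand.

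Slc25a1 (chr11:96559804-96560053, plus strand): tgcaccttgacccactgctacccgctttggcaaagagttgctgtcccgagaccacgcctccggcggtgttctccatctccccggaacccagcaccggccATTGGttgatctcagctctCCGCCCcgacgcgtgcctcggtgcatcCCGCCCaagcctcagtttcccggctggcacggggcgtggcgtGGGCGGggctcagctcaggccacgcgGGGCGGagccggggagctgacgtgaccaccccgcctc

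Slc25a39 (chr10:87866974-87867223, minus strand): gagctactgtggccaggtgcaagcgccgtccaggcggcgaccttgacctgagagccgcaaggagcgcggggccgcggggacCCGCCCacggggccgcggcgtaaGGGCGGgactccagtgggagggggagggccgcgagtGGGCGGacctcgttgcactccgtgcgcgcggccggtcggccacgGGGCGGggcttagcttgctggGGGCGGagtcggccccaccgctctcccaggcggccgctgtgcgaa

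Slc25a40 (chr4:26631384-26631633, minus strand): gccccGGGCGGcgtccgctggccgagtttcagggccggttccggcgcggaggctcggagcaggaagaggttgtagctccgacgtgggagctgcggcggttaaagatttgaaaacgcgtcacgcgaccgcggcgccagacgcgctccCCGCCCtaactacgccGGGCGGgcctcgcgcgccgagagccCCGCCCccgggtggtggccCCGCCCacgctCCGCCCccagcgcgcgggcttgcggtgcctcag

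Slc25a21 (chr6:80437721-80437970, minus strand): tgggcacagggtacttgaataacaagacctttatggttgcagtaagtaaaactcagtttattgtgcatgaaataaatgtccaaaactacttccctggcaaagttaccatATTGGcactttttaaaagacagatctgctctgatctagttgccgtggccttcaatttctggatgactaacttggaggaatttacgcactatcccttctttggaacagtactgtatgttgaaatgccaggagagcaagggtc

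Slc25a24 (chr2:199449175-199449424, plus strand): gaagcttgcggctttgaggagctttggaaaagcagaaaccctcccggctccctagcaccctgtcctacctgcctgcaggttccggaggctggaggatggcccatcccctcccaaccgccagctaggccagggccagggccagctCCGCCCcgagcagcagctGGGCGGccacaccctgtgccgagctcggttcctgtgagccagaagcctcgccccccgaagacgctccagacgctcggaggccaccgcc

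Slc25a4 (chr16:52805271-52805520, plus strand): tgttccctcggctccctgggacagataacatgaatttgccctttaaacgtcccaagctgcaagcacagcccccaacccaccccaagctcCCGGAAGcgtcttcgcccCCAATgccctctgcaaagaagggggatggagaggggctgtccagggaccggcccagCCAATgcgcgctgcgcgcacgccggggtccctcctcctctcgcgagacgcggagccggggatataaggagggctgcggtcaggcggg

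The paralogues *Slc25a39* and *Slc25a40*, which went opposite ways between ventricles, had 5 and 6 GC boxes and a GC content of 76.4% and 75.2%. *Slc25a21* had a GC content of 40.8% and a lone CCAAT box. Of the 35 members, 29 had an entry in the promoter table. A GC box was found in 65.5% of these and in 57.6% of all 9661 promoters of tested genes, a CCAAT box in 62.1% and 35%, and the ETS motif in 17.2% and 14.6%. The motif of the mitochondrial regulator NRF1 (GCGC, any base, TGCGC) was found in 0% of the members' promoters and in 8.76% of all, and the ERR motif (TNAAGGTCA) in 0% and 0.486%. A CRE (TGACGTCA) was found in 6.9% and 2.96%, an E-box (CACGTG) in 6.9% and 8.13%, and a TATA box (TATAAA) in 3.45% and 6.86%. Of 79 matches in members, 0 overlapped a match of a different motif. A match is a description of letters and not of binding.

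Banded animals at stage F showed the ventricular differences as well. In PAB-F, 23 of 35 members passed, 10 higher and 13 lower in the RV, beside 61.1% of all genes, and 7 had no overlap beside 23.4%. In AOB-F, 24 passed, 14 higher and 10 lower, beside 67.1%, and 6 had no overlap beside 30.4%. The citrate carrier *Slc25a1* was at 1.42 to 2.14 FPKM in RV PAB-F and 1.61 to 9.61 in LV PAB-F (log2 fold change -1.54). It was at 1.16 to 2.64 in RV AOB-F and 2.59 to 6.65 in LV AOB-F (-1.51).

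Across the 3 stage F conditions, whose animals are separate, 16 of 35 members passed in every condition with 1 direction, beside 49.7% of all genes, so the share was near the background. They were 8 higher in the RV (*Slc25a2*, *Slc25a14*, *Slc25a15*, *Slc25a16*, *Slc25a20*, *Slc25a30*, *Slc25a32* and *Slc25a46*) and 8 lower (*Slc25a1*, *Slc25a10*, *Slc25a28*, *Slc25a34*, *Slc25a35*, *Slc25a38*, *Slc25a39* and *Slc25a45*). They made up 59.3% of the members called in Sham-F, 69.6% in PAB-F and 66.7% in AOB-F, and 0 members were called in opposite directions. *Slc25a46* was higher in the RV by 1.0 in PAB-F and 1.29 in AOB-F on the log2 scale, and *Slc25a45* was lower (-1.29 and -1.27).

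**Figure D4:**
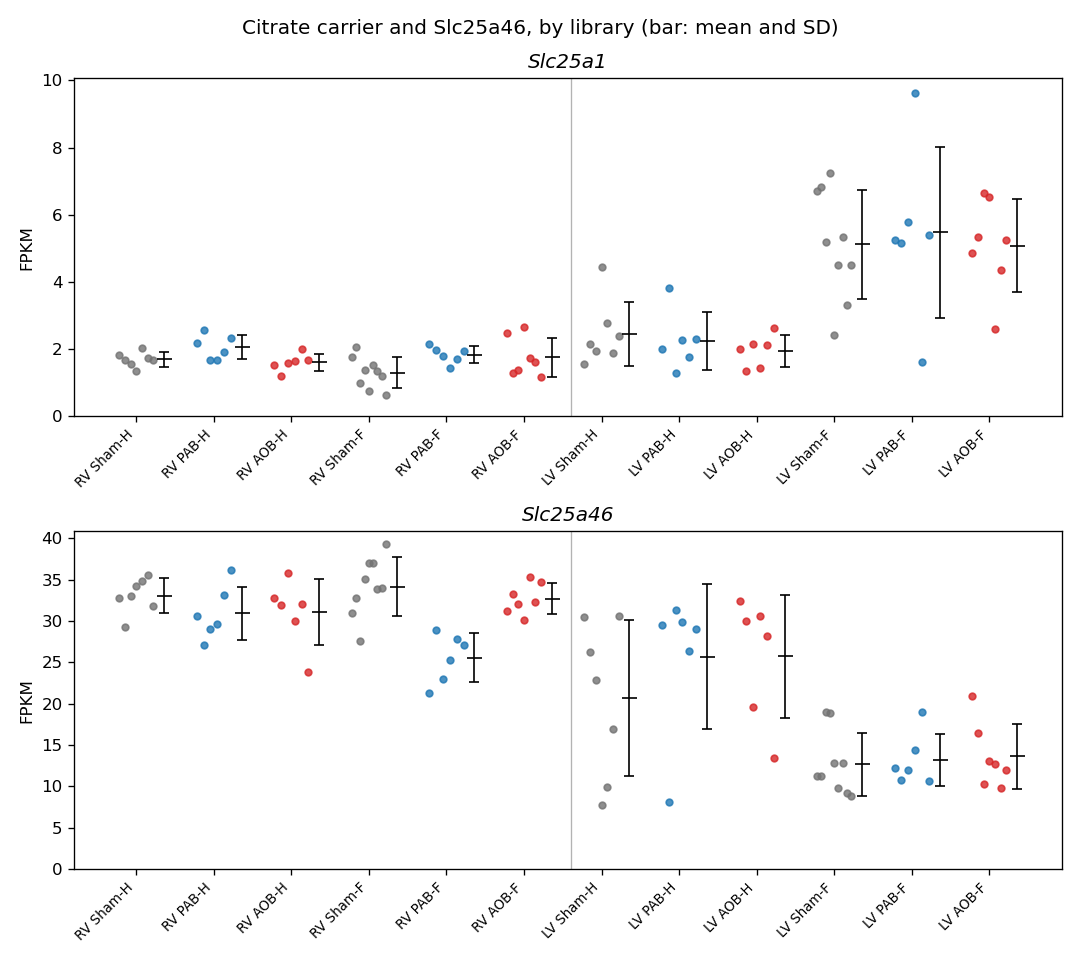
Level of *Slc25a1* and *Slc25a46* in FPKM in each library of the 12 groups, with bars for the mean and SD. *Slc25a1* is at 0.622 to 2.07 in RV Sham-F and 2.42 to 7.25 in LV Sham-F, and *Slc25a46* is at 21.2 or higher in every RV but at 8.83 to 21 in the LVs of stage F.

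Cell type markers moved with the ventricle. The endothelial sum had a median of 209 FPKM in RV Sham-F (169 to 271) and 796 in LV Sham-F (539 to 932), and 6 of 7 endothelial markers were lower in the RV and 1 was higher, while lower also were 4 of 7 fibroblast, 4 of 7 macrophage and 4 of 6 mural markers. Their part in the differences of the carriers was not tested. With the marker-rich libraries left out, 26 members passed in Sham-F, 16 in PAB-F and 26 in AOB-F, beside 74.3%, 58.2% and 70.3% of all genes. Each library was judged against its own group, so in Sham-F the endothelial sums of RV and LV still stood apart. These counts therefore cannot decide the part of the markers.

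Among relatives of the same fold, *Mtch1* was lower in RV Sham-F (log2 fold change -1.05) and *Mtch2*, an insertase of the outer membrane, higher (1.36), while *Ucp2* was lower (-0.68). *Mpc2* (-0.24) was lower and *Cpt2* (0.32) higher. Other mitochondrial lists also held members called in either direction, beside 74.3% of all genes. Of 76 oxidative phosphorylation genes tested 20 were higher and 39 lower in RV Sham-F, of 66 mitochondrial ribosomal proteins 33 and 19, of 25 other transporters of the mitochondrial membranes 11 and 5, of 13 genes of the import machinery 4 and 4, and of 16 regulators of mitochondrial biogenesis 8 and 5.

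Sham-F and Sham-H animals differed in age and in time after surgery. In the RV, 0 of 35 members passed edgeR's test for age, 1 had an unadjusted p under 0.05 (*Slc25a30*, log2 fold change 0.33, adjusted p = 0.66), DESeq2 called 0, and 0.0502% of all genes passed. In the LV, 20 of 35 members passed, 11 higher and 9 lower in the older rats, beside 57.4% of all genes, and the median log2 fold change was 0.18 beside 0.03. *Slc25a1* ran from 1.54 to 4.44 FPKM in LV Sham-H (median 2.14) and from 2.42 to 7.25 in LV Sham-F (median 5.19), with a log2 fold change of 1.04 (adjusted p = 8.44e-05). The ranges overlapped.

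Other members higher in the older LV included *Slc25a45* (0.69), the basic amino acid carrier *Slc25a29* (0.54), *Slc25a34* (0.52) and *Slc25a39* (0.52). Those lower included *Slc25a46* (-0.73), *Slc25a40* (-0.65), *Slc25a32* (-0.54), *Slc25a5* (-0.53) and *Slc25a20* (-0.45). *Slc25a5* fell from 158 to 223 FPKM (median 185) in LV Sham-H to 100 to 169 (median 127) in LV Sham-F, and *Slc25a20* from 154 to 211 (median 170) to 120 to 163 (median 130). Of the relatives, *Mtch2* (-0.97), *Cpt2* (-0.36) and *Cpt1b* (-0.28) were lower, and *Mtch1* (0.70) and *Ucp2* (0.64) higher. Markers of fibroblasts (3 of 7), macrophages (4 of 7), endothelium (3 of 7, with 1 lower) and mural cells (4 of 6) were higher in the older LV, and their part was not tested. Without the marker-rich libraries, each judged against its own group, 26 members passed, beside 65.9% of all genes.

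Whether age acted differently in the ventricles was tested as the age difference of the RV minus that of the LV, and 16 of 35 members passed, 8 in each direction, beside 41.6% of all genes. With the animal as a block 19 passed, beside 49.8% of all genes. The values that follow are of the main test. The difference was -1.42 for *Slc25a1* (adjusted p = 0.00082), whose age log2 fold change was -0.38 in the RV and 1.04 in the LV. It was -0.78 for *Slc25a45* and -0.65 for *Slc25a39*, and 0.85 for *Slc25a21*, 0.77 for *Slc25a46* and 0.67 for *Slc25a40*. All of these are signed log2 differences. The plot of *Slc25a1* and *Slc25a46* by library shows medians of 1.67 FPKM in RV Sham-H and 1.33 in RV Sham-F for *Slc25a1*, and of 33 and 34 for *Slc25a46*. Per the study's methods, samples were collected at different times, kept frozen and sequenced together, so age and the time of collection cannot be told apart.

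The study itself took a gene as regulated when it changed more than 2-fold either way with a p no larger than 0.01 and had a mean of more than 50 reads in the diseased group. Here the p was read as unadjusted, and the mean was that of normalized counts in the group named first, the RV between ventricles and the older group for age. Between ventricles, a member with a mean of 50 or less in the RV could thus not pass, however large its difference. Applied to the edgeR fit they left 1 member in RV PAB-H (*Slc25a24*, background 1.82%) and 0 in RV PAB-F (1.90%), in LV AOB-F (1.21%), between Sham-H ventricles (2.17%) and between AOB-H ventricles (2.53%). The same comparisons had 4, 3, 4 and 1 members by the adjusted p alone, with 10, 8, 7 and 4 members at an unadjusted p under 0.05. Under those criteria 5 members differed between ventricles in Sham-F (background 24.1%), 2 in PAB-F (15.4%) and 4 in AOB-F (18.2%), and 1 in the LV with age (7.45%).

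**Figure D5:**
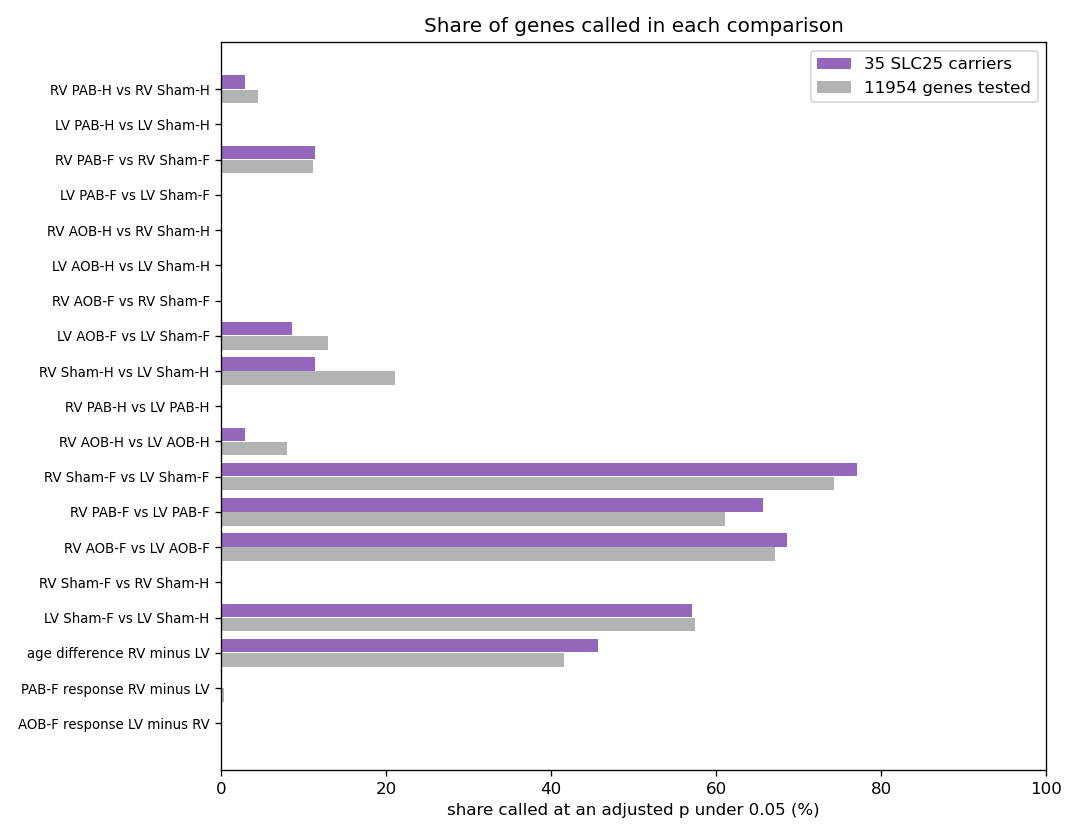
Percent of the 35 carriers and of the 11954 genes tested with an adjusted p under 0.05 in each of the 19 comparisons. Shares of carriers and of all genes lie close in the ventricle comparisons of stage F, with 27 of 35 carriers and 74.3% of all genes in Sham-F.

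The animals were 21 males and 20 females, unevenly spread over groups, and sex was examined after the data had been seen. Over all 12 groups, with sex as a term beside group, 7 members passed edgeR's test, beside 17.2% of all genes, and the RV and LV of an animal both entered, so these p-values are too small for 41 animals. Levels were higher in males for *Slc25a29* (log2 fold change 0.38), *Slc25a34* (0.37), *Slc25a10* (0.36), *Slc25a38* (0.28) and *Slc25a45* (0.24), and lower for *Slc25a21* (-0.37) and *Slc25a40* (-0.24). With the counts of both ventricles summed per animal 5 passed, beside 10.8% of all genes, and *Slc25a45* and *Slc25a40* did not. With sex as a covariate, 5 of 35 carriers passed in LV AOB-F, *Slc25a24* higher and *Slc25a23*, *Slc25a29*, *Slc25a33* and *Slc25a35* lower, beside 13.9% of all genes.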

How the data were processed

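The deposited table held, for each of 82 libraries, raw read counts per gene, normalized counts and FPKM. Per the labels and the study's methods, the authors trimmed reads with Trim Galore, aligned them to Rnor6.0 with STAR, counted them with featureCounts and made the normalized counts, a signal divided by size factors, with DESeq2 (1.28.1). The deposited FPKM values, made by the authors, are per kilobase. They are scaled by size factors times the geometric mean of library totals, rather than by each library's own total. Whether counting used strand is not given in the sources used here, so antisense overlaps cannot be told apart. Fold changes and p-values of the authors' own comparisons were not used.

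Raw counts were tested with edgeR 4.0.16 (R 4.3.3, limma 3.58.1). Genes were kept by filterByExpr, libraries scaled by TMM, and all 82 libraries fitted in 1 quasi-likelihood model with a mean per group, with Benjamini-Hochberg adjustment over 11954 genes. DESeq2 1.42.0 was an alternative, with other scaling, no filter, a length correction, sex as a covariate, each replicate left out, and the animal or the replicate number as a block. Replicates are separate animals. The labels tie each RV to an LV, and deviations of the ventricles of an animal correlated at a median r of 0.186 to 0.297 by condition, beside -0.069 to -0.014 between animals, so the pairing comes from the labels.

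FPKM was used for levels. Named genes were the 8 most abundant members, up to 3 called members in each direction per comparison, carrier relatives, and the members by their level, except 1 that is not reported here by name. Members and lists were chosen with earlier results of these data known. On simulated counts with few changed genes and independent libraries, the fit's median estimates lay near known 2-fold changes. That setting differs from the stage F ventricle comparisons, where most genes passed and the ventricles of an animal are paired. Leaving out libraries with marker sums over 1.5 times the group median, leaving out libraries with cardiomyocyte sums under 0.75 times that median, and the comparison of the sexes, were added after seeing the data.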

Additional observations from a re-analysis of the deposited data

Results flagged for a closer look

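Groups of 4 to 10 libraries were screened for a library far from the others in FPKM, among the members in groups where they are named, and chance flags about 1 in 20 of them. Of 157 groups screened, 28 held such a library. AOB-H animal 6 accounted for 9 of these, at low levels of the abundant carriers. In its LV *Slc25a4* was at 1638, *Slc25a3* at 1126, *Slc25a11* at 238, *Slc25a5* at 95.2, *Slc25a34* at 43.8 and *Slc25a23* at 41.2, and in its RV *Slc25a3* was at 1653, *Slc25a11* at 351 and *Slc25a34* at 82.5. Both of its libraries were marker-rich.

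RV PAB-H replicate 2, with the highest fibroblast sum, was low for *Slc25a4* (2094), *Slc25a3* (1490), *Slc25a5* (131), *Slc25a20* (124) and *Slc25a23* (39.7). LV Sham-H replicate 4 was high for *Slc25a11* (736), *Slc25a28* (24) and *Slc25a1* (4.44), and LV PAB-H replicate 2 for *Slc25a39* (132). These libraries were marker-rich too.

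The others were spread over libraries. *Slc25a4* was high in RV AOB-F replicate 7 (5006), *Slc25a23* high in RV Sham-H replicate 1 (80.9), *Slc25a40* high in RV Sham-H replicate 6 (6.75) and *Slc25a5* low in RV Sham-F replicate 4 (120). *Slc25a20* stood apart in LV PAB-F replicate 5 (194) and LV Sham-F replicate 8 (163), *Slc25a29* in LV Sham-F replicate 2 (37.9) and *Slc25a2* in LV PAB-F replicate 6 (4.58). LV AOB-F replicate 5 was high for *Slc25a21* (2.01) and *Slc25a40* (4.86).

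The age difference between ventricles, RV minus LV on the log2 scale, passed edgeR's test of the difference itself for 16 members. It was negative for *Slc25a1* (-1.42, adjusted p = 0.00082), *Slc25a45* (-0.78, 0.022), *Slc25a39* (-0.65, 0.003), *Slc25a34* (-0.62, 0.038), *Slc25a10* (-0.61, 0.025), *Slc25a28* (-0.41, 0.02), *Slc25a42* (-0.39, 0.034) and *Slc25a23* (-0.29, 0.048). It was positive for *Slc25a20* (0.44, 0.022), *Slc25a5* (0.49, 0.012), *Slc25a32* (0.53, 0.02), *Slc25a30* (0.55, 0.0098), *Slc25a14* (0.67, 0.019), *Slc25a40* (0.67, 0.045), *Slc25a46* (0.77, 0.016) and *Slc25a21* (0.85, 0.029).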

How the results depend on the processing

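Of the alternatives for single named members, 1021 kept their direction and side of the threshold, 64 lost the call and 0 reversed. Under the study's criteria the counts were 0 in RV PAB-F, LV AOB-F and the ventricles of Sham-H and AOB-H, 5, 2 and 4 for the ventricles of Sham-F, PAB-F and AOB-F, and 1 for LV age. In LV AOB-F, 5 members passed with sex as a covariate and 5, all lower, with the replicate number as a block (*Slc25a24* 0.72, adjusted p = 0.055), although these numbers mark no shared animal across surgeries. For the ventricles of AOB-H the count was 0 with DESeq2 size factors, with no filter and with a length correction, and 3 with the animal as a replicate block. The animal pairing changed no other count by over 1.5 times. Without the 13 marker-rich libraries, an alternative added after seeing the data, 0 members passed in RV PAB-H, 8 in LV AOB-F, 1 in the ventricles of Sham-H, 0 in those of AOB-H and 3 in the AOB-F response difference. Without the 5 low-cardiomyocyte libraries, added likewise, 0 passed in RV PAB-H, 2 in RV PAB-F and 0 for the ventricles of AOB-H, and *Slc25a24* passed in none of its 3 banding comparisons. DESeq2 itself called 4 in LV AOB-F and 5 in RV PAB-F.

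With 1 replicate left out, the counts ran from 0 to 3 in RV PAB-H, 1 to 5 in RV PAB-F, 2 to 5 in LV AOB-F, 0 to 5 and 0 to 2 for the ventricles of Sham-H and AOB-H, 25 to 28, 19 to 24 and 21 to 25 for those of Sham-F, PAB-F and AOB-F, 17 to 24 for LV age and 10 to 19 for the age difference, the lowest without LV Sham-F replicate 2. RV PAB-H had 0 without RV Sham-H replicate 5 or RV PAB-H replicate 2, RV PAB-F had 1 without its replicate 1 or 2, LV AOB-F had 2 without its replicate 7, and Sham-H ventricles had 0 without LV Sham-H replicate 4. Groups of 6 to 9 and low counts of *Slc25a27*, *Slc25a18* and *Slc25a24* limit what could be called. Age, stage and handling, and sex in unbalanced groups, cannot be told apart from part of these differences.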

Other observations

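Within LV AOB-F, comparing its 4 males with its 3 females after the data had been seen, 13 of 35 members passed edgeR's test, beside 28.3% of all genes. Of the 3 females, replicates 6 and 7 had cardiomyocyte marker sums of 31572 and 31035 FPKM, against 51643 to 65964 in the other libraries of the group, and the part of this in the difference was not tested. *Slc25a29* (log2 fold change 1.33), *Slc25a45* (1.14), *Slc25a34* (1.04), *Slc25a10* (0.99), *Slc25a38*, *Slc25a39* and *Slc25a11* were higher in males, and the glutamate carrier *Slc25a18* (-2.0), *Slc25a40* (-1.0), *Slc25a14*, *Slc25a5*, *Slc25a17* and *Slc25a37* were lower. In LV Sham-F 3 passed, *Slc25a10*, *Slc25a18* and *Slc25a40*, beside 6.40% of all genes. Whether these differences changed with banding was not tested.

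Over all genes tested, the median log2 fold change of RV over LV in Sham-F rose with gene length, from -0.24 in the shortest quartile to 0.13 in the longest. Members higher in the RV had a median length of 1750 bases and those lower 1686, beside 2172 for all genes. With the length correction, 26 members passed, 14 higher and 12 lower, beside 74.2% of all genes.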
